A study of Mus musculus with 16 samples.

Results

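Hox genes encode homeodomain transcription factors that lie side by side in the Hoxa, Hoxb, Hoxc and Hoxd clusters and carry a paralog number that follows their order along each cluster. Genes with low numbers are used towards the head and those with high numbers towards the tail of the embryo, and together they set the identity of segments along the body axis, with the TALE homeodomain proteins Pbx and Meis as DNA-binding partners. Adult connective tissue cells often keep part of the Hox code of the place where they arose, and some Hox genes also act in blood stem cells. The 39 protein-coding Hox genes were taken by symbol (Hoxa to Hoxd with a number, no antisense genes) from a table of 54838 genes. They fill 40 rows, since Hoxd4 has 2 rows, of which the second holds 1 count in all and was not found in the annotation. The Hoxa cluster has 11 genes, Hoxb 10, Hoxc 9 and Hoxd 9.

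RNA was sequenced from spleens of C57BL/6 mice as 8 size-selected and 8 whole spleen samples. For the size-selected samples, minced spleen was digested with enzymes including Dispase II, red blood cells were lysed, and the material retained by a cell strainer was taken, whose source the labels name as spleen glia; how whole spleen was prepared is not described separately. The study looked for genes enriched in spleen glia. Each of 8 numbers, 4 male and 4 female, has 1 sample of each kind. The labels give no age and do not say that a number is an animal, so p-values measure the spread between these samples, which may be technical.

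The samples held 12153770 to 19944440 estimated counts. Markers of several cell types differed between the 2 kinds of sample. All 7 fibroblast, 5 smooth muscle, 5 mesothelial and 5 endothelial markers were higher in the size-selected samples (edgeR, adjusted p under 0.05), as were the 3 of 4 glial markers reported here that passed the filter on low counts (S100b, Cdh19 and Ngfr). The summed level of the fibroblast markers was 1061 to 3664 CPM (counts relative to the scaled total of a sample) against 5.02 to 57.6 CPM in whole spleen, that of the smooth muscle markers 765 to 3638 against 8.36 to 69.2, and that of the 4 glial markers (those and Sox10) 12.1 to 109.5 against 0.964 to 2.53. The mesothelial markers summed to 19.6 to 173 against 0.381 to 3.02 CPM, and the endothelial markers to 523 to 1328 against 72.5 to 168. B cell markers, all 5 of them lower, still summed to 824 to 3109 CPM in the size-selected samples, against 5072 to 6369. The T cell markers summed to 132 to 299 against 342 to 556 CPM (4 of 5 lower), the neutrophil markers to 91.1 to 859 against 511 to 1882 (5 of 5 lower) and the erythroid markers to 107 to 3507 against 278 to 13705 (2 of 5 lower). The macrophage markers summed to 1713 to 3752 against 1087 to 1907 CPM (2 of 5 higher), and the stem and progenitor markers to 178 to 313 against 46.8 to 88.3 (4 of 5 higher, Flt3 lower). Of all 14510 genes tested with the filter, 37.5% were higher and 30.4% lower, and the macrophage and erythroid counts are near these shares. The part of each cell type in the Hox results below was not tested.

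The Hoxa genes lie at chr6:52155590-52260880, the Hoxb genes at chr11:96194316-96368256, the Hoxc genes at chr15:102921103-103036852 and the Hoxd genes at chr2:74668310-74765142 (GRCm38). The sequences before the start sites of 4 of them are shown because 3 belong to genes that were higher in the size-selected samples (Hoxa5, Hoxa2 and Hoxd8) and the other to Hoxa9, which lies in the same cluster as Hoxa5 and was nearly silent in both kinds of sample. Each is the 250 bases 5′ of a start in RefSeq (GRCm38.p6), written 5′ to 3′ on the strand of the gene, with matches on either strand in capitals. CCAAT matches 1 time in Hoxa5, 4 times in Hoxa2 and 1 time in Hoxd8, TGATTNAT (a form of Hox-Pbx site) in Hoxa2 and AGGTCA (a nuclear receptor half-site) in Hoxd8; Hoxa9 has no match. The window of Hoxa5 is chr6:52204588-52204837, that of Hoxa2 chr6:52164832-52165081 and that of Hoxa9 chr6:52227371-52227620, all on the minus strand, and that of Hoxd8 is chr2:74704365-74704614 on the plus strand.
Hoxa5: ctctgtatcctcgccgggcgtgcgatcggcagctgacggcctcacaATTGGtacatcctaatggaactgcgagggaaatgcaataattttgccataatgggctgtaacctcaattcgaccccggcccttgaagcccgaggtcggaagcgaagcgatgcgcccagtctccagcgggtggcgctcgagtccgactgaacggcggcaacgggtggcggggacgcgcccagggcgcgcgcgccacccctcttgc
Hoxa2: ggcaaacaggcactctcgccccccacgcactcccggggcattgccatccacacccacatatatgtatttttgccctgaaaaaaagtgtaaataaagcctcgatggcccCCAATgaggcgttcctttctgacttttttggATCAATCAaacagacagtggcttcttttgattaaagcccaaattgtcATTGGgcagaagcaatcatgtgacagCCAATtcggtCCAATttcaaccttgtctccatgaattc
Hoxd8: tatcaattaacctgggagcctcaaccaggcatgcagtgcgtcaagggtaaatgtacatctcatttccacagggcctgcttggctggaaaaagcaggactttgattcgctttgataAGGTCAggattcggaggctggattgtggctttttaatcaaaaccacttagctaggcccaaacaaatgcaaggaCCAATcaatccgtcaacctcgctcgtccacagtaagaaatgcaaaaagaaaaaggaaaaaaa
Hoxa9: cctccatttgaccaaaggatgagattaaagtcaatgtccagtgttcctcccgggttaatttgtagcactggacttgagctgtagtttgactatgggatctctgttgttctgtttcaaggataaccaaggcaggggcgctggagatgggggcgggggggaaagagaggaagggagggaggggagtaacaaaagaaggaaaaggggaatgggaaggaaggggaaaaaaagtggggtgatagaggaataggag
The Hoxa5 window holds 28 CpG pairs, that of Hoxa2 6, that of Hoxd8 6 and that of Hoxa9 3. The letters TATAAA and TAATTA are in none of the 4 windows. RefSeq windows were found for 22 of the 39 Hox genes, 24 windows in all. Of these 24, 14 hold CCAAT, 6 AGGTCA, 4 TATAAA, 2 TGATTNAT and 2 TAATTA, while the shares over 32851 promoter windows of that length are 33.8%, 14%, 12.4%, 2.82% and 4.84%. The median number of CpG pairs is 12.5 in the Hox windows and 6 over all. A match is a description of letters and not a bound site. The 4 windows shown were picked by the levels of their genes, and whether matches or CpG pairs go with level was not tested.

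Hox RNA was more abundant in the size-selected samples. The summed level of all Hox genes was lowest at 26.5 CPM, had a median of 42.9 and was highest at 71.3 in the size-selected samples, and ran from 1.54 through 2.89 to 5.55 CPM in whole spleen, so the groups did not overlap. In bulk samples, a cell type that is rarer and a cell type with less RNA per cell cannot be told apart. Of the 40 rows, 10 were at 0 in all 16 samples (Hoxa11, Hoxb1, Hoxb13, Hoxc10, Hoxc11, Hoxc12, Hoxd1, Hoxd11, Hoxd12 and Hoxd13), and a count of 0 allows up to 3 counts, or 0.144 to 0.219 CPM in a size-selected and 0.193 to 0.245 CPM in a whole spleen sample, for counting error only. A value above 0 was found for 16 rows in all 8 size-selected samples and for 3 rows (Hoxa5, Hoxa7 and Hoxb4) in all 8 whole spleen samples.

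**Figure D1:**
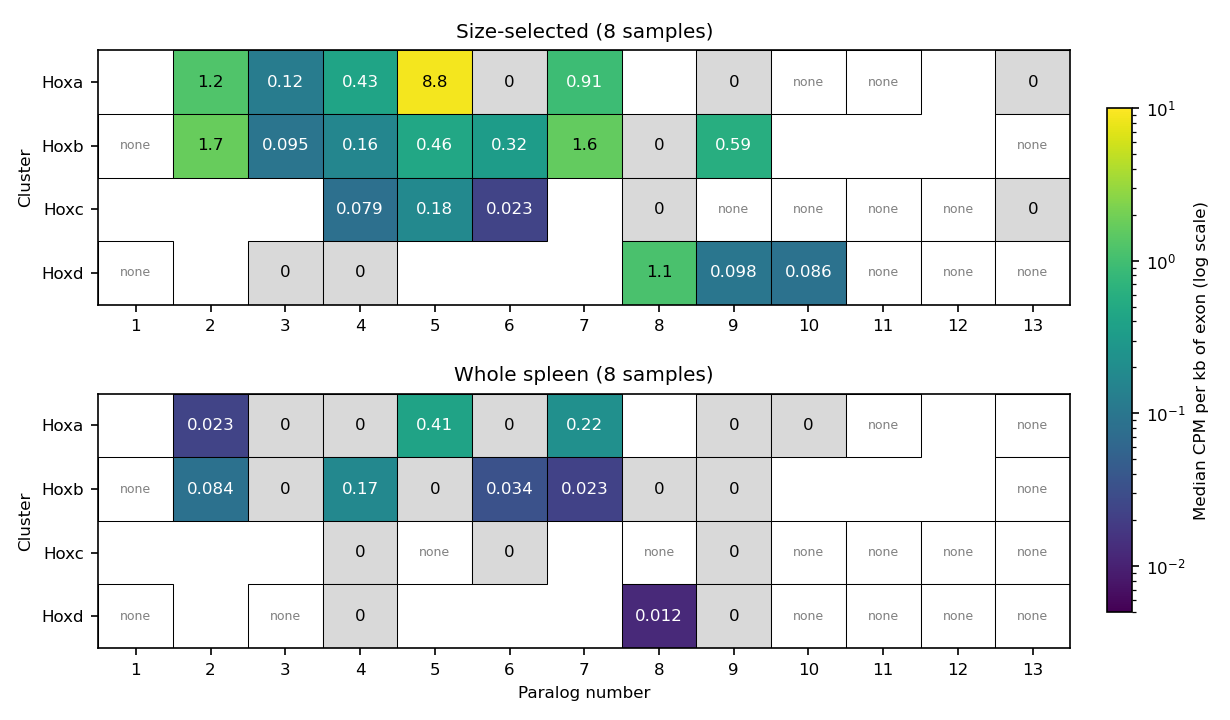
Median level of the Hox genes reported here in CPM per kb of exon (colour, log scale, and printed value) by cluster and paralog number, above for the 8 size-selected and below for the 8 whole spleen samples; grey cells have a median of 0, "none" marks genes at 0 in all 8 samples, and gaps are paralogs that do not exist in mouse or are not reported here. In the size-selected panel the coloured cells end at paralog 7 in Hoxa, 9 in Hoxb, 6 in Hoxc and 10 in Hoxd, and Hoxa5 at 8.81 is the highest.

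Levels of different genes are compared per kb of exon. On that scale Hoxa5, which patterns the trunk skeleton and the lung, stood above all other Hox genes in the size-selected samples, at 8.98 ± 2.81 CPM per kb (SD, n = 8). Its lowest sample, 5.31 CPM per kb, was above the highest sample of Hoxb2, 2.54. Hoxb2 (1.79 ± 0.491), Hoxb7 (1.76 ± 0.897), Hoxd8 (1.25 ± 0.388), Hoxa2 (1.2 ± 0.695) and Hoxa7 (0.888 ± 0.295 CPM per kb, SD, n = 8) followed, with each mean closer to the next than the larger of the 2 SDs. Hoxb9 came at 0.645 ± 0.260 CPM per kb (SD, n = 8). In whole spleen the order began with Hoxa5 at 0.417 ± 0.218, Hoxa7 at 0.217 ± 0.1001 and Hoxb4 at 0.170 ± 0.0753 CPM per kb (SD, n = 8), which is not the order of the size-selected samples.

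By cluster, the Hoxa genes made up 63.0% of the mean Hox level per kb in the size-selected samples, the Hoxb genes 27.5%, the Hoxd genes 7.85% and the Hoxc genes 1.64%. By position, paralogs 4 to 8 made up 75.8%, paralogs 1 to 3 19.4% and paralogs 9 to 13 4.78%. Paralog group 5 alone (Hoxa5, Hoxb5 and Hoxc5) gave 49.3%, most of it Hoxa5. Within the Hoxa cluster the levels broke off after Hoxa7. Hoxa7 was at 0.888 CPM per kb, while Hoxa9, a gene of blood stem and progenitor cells, was at 0.00590 ± 0.0167 CPM per kb (SD, n = 8), above 0 in 1 size-selected sample, with 4 counts, and in 2 whole spleen samples. Hoxa10 was at 0 in all 8, with 3 counts in whole spleen, and Hoxa13 had 3 counts in all against 0. Hoxa6, between Hoxa5 and Hoxa7, also stayed low, with 8 counts in the 8 size-selected samples together and 1 in whole spleen.

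With the usual filter on low counts (a minimum count of about 10 in as many samples as a group holds), 6 Hox rows could be tested, and all 6 were higher in the size-selected samples: Hoxa5, Hoxa7, Hoxb2, Hoxb7, Hoxb9 and Hoxd8 (edgeR quasi-likelihood test, Benjamini-Hochberg adjusted p under 0.05). Of all 14510 genes tested, 37.5% were higher and 30.4% lower. A gene can pass the filter through the size-selected samples alone, so this count is given as a description. Without the filter, 30 rows were tested, of which 17 were higher, 0 lower and 13 not called, against 25.3% higher and 18.2% lower of 28235 genes. At an unadjusted p under 0.05, 1 row (Hoxa10) was lower, and DESeq2 without the filter called 17 higher and 0 lower. The median log2 fold change of the 30 rows was 2.62, against 0.14 over all genes. With the 2 called genes that were at 0 in whole spleen set at their bound, and 5 rows under the floor left out, the median of 25 rows was 2.77.

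**Figure D2:**
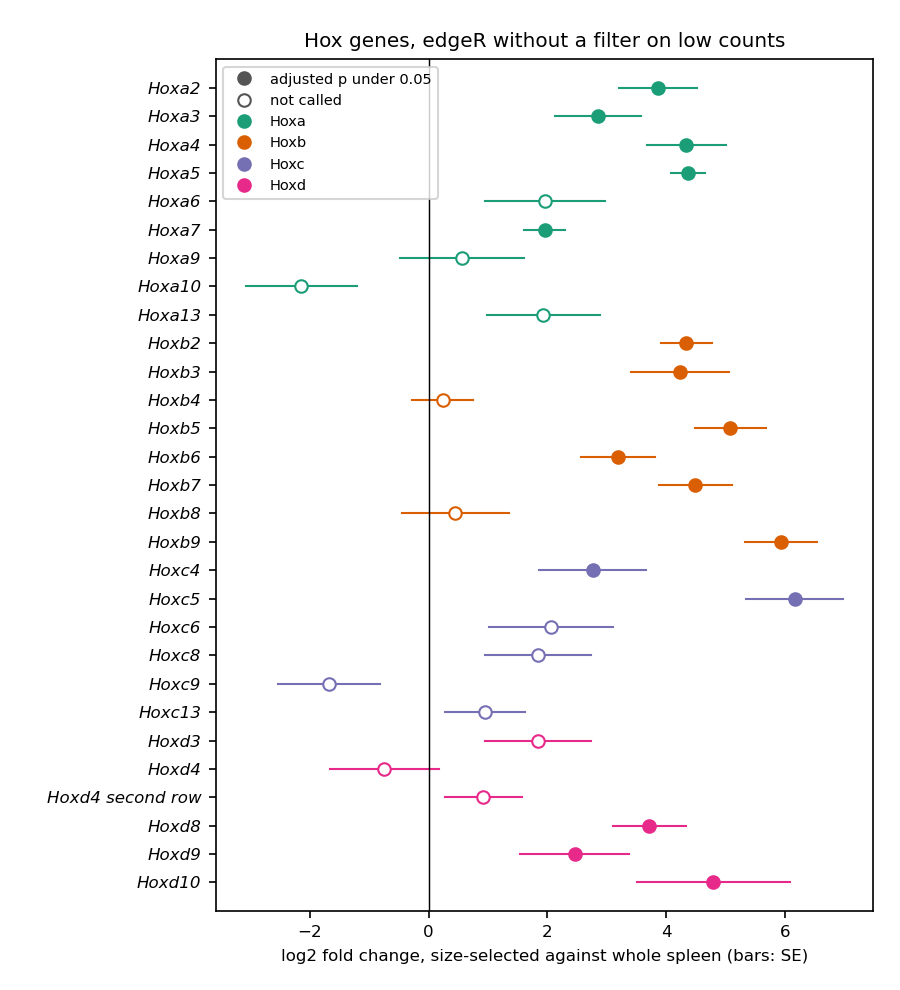
Log2 fold change of size-selected against whole spleen (horizontal axis; bars are 1 SE) for 29 of the 30 Hox rows tested without a filter, coloured by cluster; filled points have an adjusted p under 0.05. The 16 filled points all lie to the right of 0, and the points of genes at 0 in whole spleen (Hoxc5 and Hoxd10 among them) depend on the prior count of the fit.

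Of the 30 rows tested without the filter, 14 were higher in the size-selected sample of all 8 numbers (18.7% of all genes tested were), and in 11 every size-selected sample was above every whole spleen sample (13.6% of all genes). By position, 5 of the 6 rows tested among paralogs 1 to 3 were called higher (25.3% of all genes were), 9 of 16 among paralogs 4 to 8 and 3 of 8 among paralogs 9 to 13. By cluster, it was 6 of 10 Hoxa, 6 of 8 Hoxb, 2 of 6 Hoxc and 3 of 6 Hoxd rows. The shares in Hoxc and among paralogs 9 to 13 are near that of all genes. With the number as a block, the 6 genes past the filter were again higher (38.1% of all genes), and without the filter 16 were called higher (22.8% of all genes): Hoxc4 was not, with an adjusted p of 0.0951.

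In the Hoxa cluster, Hoxa5 was at 9.97 CPM in its lowest, 16.5 in its median and 28.4 in its highest size-selected sample, and at 0.385, 0.771 and 1.55 CPM in whole spleen. The 2 kinds of sample lay far apart, and the sample of number 427 stood above the other size-selected samples. The log2 fold change was 4.43 (SE 0.29, adjusted p by edgeR = 4.82e-10). Hoxa7, which takes part in patterning the trunk vertebrae, ran from 1.4 through 2.63 to 3.94 CPM, and from 0.216 through 0.631 to 0.992 CPM in whole spleen. Its groups did not overlap either, but came close. Its log2 fold change was 2.02 (SE 0.31, adjusted p by edgeR = 1.60e-05), the smallest of the 17; whether it differs from that of Hoxa5 was not tested. Exons of the antisense gene Hoxaas3 cover 20.4% of the Hoxa7 exons, and no source states whether counting used strand, so the levels of such a pair are uncertain.

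Hoxa2, which gives the second branchial arch its identity, ran from 0.593 through 2.22 to 4.33 CPM in the size-selected samples and from 0 through 0.0408 to 0.480 CPM in whole spleen. All size-selected samples lay above all whole spleen samples, though those of numbers 408 and 435 only narrowly. It did not pass the filter; without it, the log2 fold change was 3.87 (SE 0.65, adjusted p by edgeR = 3.44e-05), and 4.67 without number 435. Hoxa3 had 5.37 to 24.6 counts in the size-selected and 0 to 6 in the whole spleen samples, and its fitted log2 fold change was 2.86 without the filter (3.58 when number 427 was also left out). It overlapped between the groups while being higher in the size-selected sample of all 8 numbers. Hoxa4 had 94.1 counts in all 8 size-selected samples together against 3 in whole spleen, a ratio of 27.1 per TMM-scaled total (95% exact interval 8.99 to 134, for counting error only). The deposited size-selected values of Hoxa2, Hoxa4, Hoxb6, Hoxc6, Hoxc8 and Hoxc13 are multiplied by a constant of 0.770 to 0.858, and the levels given here are not corrected for it; no label explains it. With it divided out, 17 genes were again called without the filter.

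In the Hoxb cluster, Hoxb2, which acts in the hindbrain under control of Hoxb1, ran from 4.22 through 5.91 to 8.86 CPM and from 0 through 0.294 to 0.649 CPM in whole spleen. The groups lay well apart. The log2 fold change was 4.40 (SE 0.43, adjusted p by edgeR = 5.31e-08). Exons of the antisense gene Hoxb3os cover 27.3% of the Hoxb2 exons and 52.9% of those of Hoxb3, and Hoxb3os itself ran from 0.0484 through 1.56 to 4.34 CPM in the size-selected samples. Hoxb7 ran from 0.761 through 2.51 to 5.37 CPM, against 0, 0.0350 and 0.503 CPM in whole spleen. Number 408 was the lowest of its size-selected samples and came close to the highest whole spleen sample. The log2 fold change of Hoxb7 was 4.55 (SE 0.61, adjusted p by edgeR = 2.54e-06), and 5.55 without number 436.

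Hoxb9, which patterns the ribs and the chest wall, ran from 0.692 through 1.52 to 2.66 CPM in the size-selected samples, while whole spleen held 2 counts in 8 samples and no more than 0.0816 CPM. Every size-selected sample had at least 10 counts. The pooled ratio was 91.6 (95% exact interval 25.1 to 762, counting error only), or 159 without number 427 and 162 without number 460, which hold 1 whole spleen count each, and the edgeR adjusted p was 1.75e-08. Hoxb5 had 158 against 3 counts in all, a ratio of 45.5 (15.3 to 223), and Hoxb3 had 61.9 against 2, a ratio of 26.8 (7.11 to 226), or 17.7 without number 447. Both whole spleen counts of Hoxb3 were in number 407, above the size-selected sample of number 435, so its groups overlapped; without number 407 its fitted log2 fold change went from 4.23 to 6.04. Hoxb6 had 4.62 to 19.96 counts in the size-selected and 0 to 3 in the whole spleen samples, with a log2 fold change of 3.20 without the filter.

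Hoxb4, best known for expanding blood stem cells, was the exception among the expressed genes. It had 2 to 22 counts in the size-selected and 1 to 9 in the whole spleen samples, at medians of 0.415 and 0.449 CPM. It was higher in the size-selected sample of 4 of 8 numbers, and the groups overlapped, with the size-selected samples of numbers 427 and 447 above all whole spleen samples. The log2 fold change without the filter was 0.24 (SE 0.51, adjusted p by edgeR = 0.724), which does not show that the levels were equal. Hoxb8 had 2 counts in all in the size-selected and 1 in the whole spleen samples.

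The Hoxc genes were low. Hoxc5 had 3 to 20 counts, from 0.208 through 0.552 to 1.32 CPM, in the size-selected samples and was at 0 in all 8 whole spleen samples. All 8 size-selected samples were above all whole spleen samples, that of number 407 by the most. The mean was at least 2.76-fold higher than the floor of 3 counts per whole spleen sample (edgeR adjusted p without the filter = 1.26e-05). This floor is set for each sample and is loose for 8 samples at 0. Such bounds, here and below, are therefore not comparable with the pooled ratios. Hoxc4 ran from 0 through 0.204 to 0.395 CPM and from 0 through 0 to 0.0816 CPM in whole spleen. It was at 0 in the size-selected samples of numbers 408 and 435, so the groups overlapped. The pooled ratio was 9.94 (95% exact interval 2.46 to 87), or 19.8 without number 408 and 17.3 without number 427, with an adjusted p of 0.0154 without the filter, and of 0.0582 when number 407 was also left out. Its fitted log2 fold change was 2.77, and 3.47 without number 408. Hoxc6 ran from 0 through 0.0563 to 0.339 CPM, with 13.2 counts in the size-selected samples and 2 in whole spleen, both of the latter in number 435, and was not called (adjusted p = 0.115). Hoxc8 and Hoxc13 had 3.23 and 0.858 counts in the size-selected samples together and 0 in whole spleen, and Hoxc9 had 0 and 2.

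In the Hoxd cluster, Hoxd8 ran from 2.01 through 3.05 to 5.30 CPM in the size-selected samples and from 0 through 0.0327 to 0.979 CPM in whole spleen. The groups did not overlap, and number 427 was highest in both. The log2 fold change was 3.77 (SE 0.62, adjusted p by edgeR = 2.68e-05), and 4.8 with limma-voom. Hoxd9 ran from 0.0544 through 0.209 to 0.804 CPM, and in whole spleen was at 0 in 7 samples and at 0.359 CPM (5 counts) in number 436. That number was the one in which the size-selected sample was lower. Hoxd9 was called without the filter (log2 fold change 2.46, SE 0.92, adjusted p by edgeR = 0.0337), but not when number 407, 408, 427, 435, 445 or 460 was left out (adjusted p from 0.0535 to 0.123). Without number 436 its log2 fold change was 5.32 (adjusted p by edgeR = 0.000812), and with the number as a block 3.27.

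Hoxd10, which specifies lumbar motor neurons, had 0 to 12 counts in the size-selected samples, 28 in all, and 0 in whole spleen. It was above 0 in 5 of 8 size-selected samples, with number 427 highest at 0.859 CPM. Its mean was at least 1.06-fold higher than the floor of 3 counts per whole spleen sample, but without number 427 it was 0.66 times that floor, so the bound rests on that sample (edgeR adjusted p without the filter = 0.00653, and 0.0156 without number 427). Of the 12 genes of paralogs 10 to 13, 8 were at 0 in all 16 samples. The other 4 were tested without the filter, and Hoxd10 was the 1 called higher, a share near the 25.3% of all genes. Hoxd3 held 3 counts in the 8 size-selected samples together and 0 in whole spleen, while Hoxd4 held 1.15 and 2. Of their exons, 53.1% and 39.1% are shared with the gene model Gm28230.

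**Figure D3:**
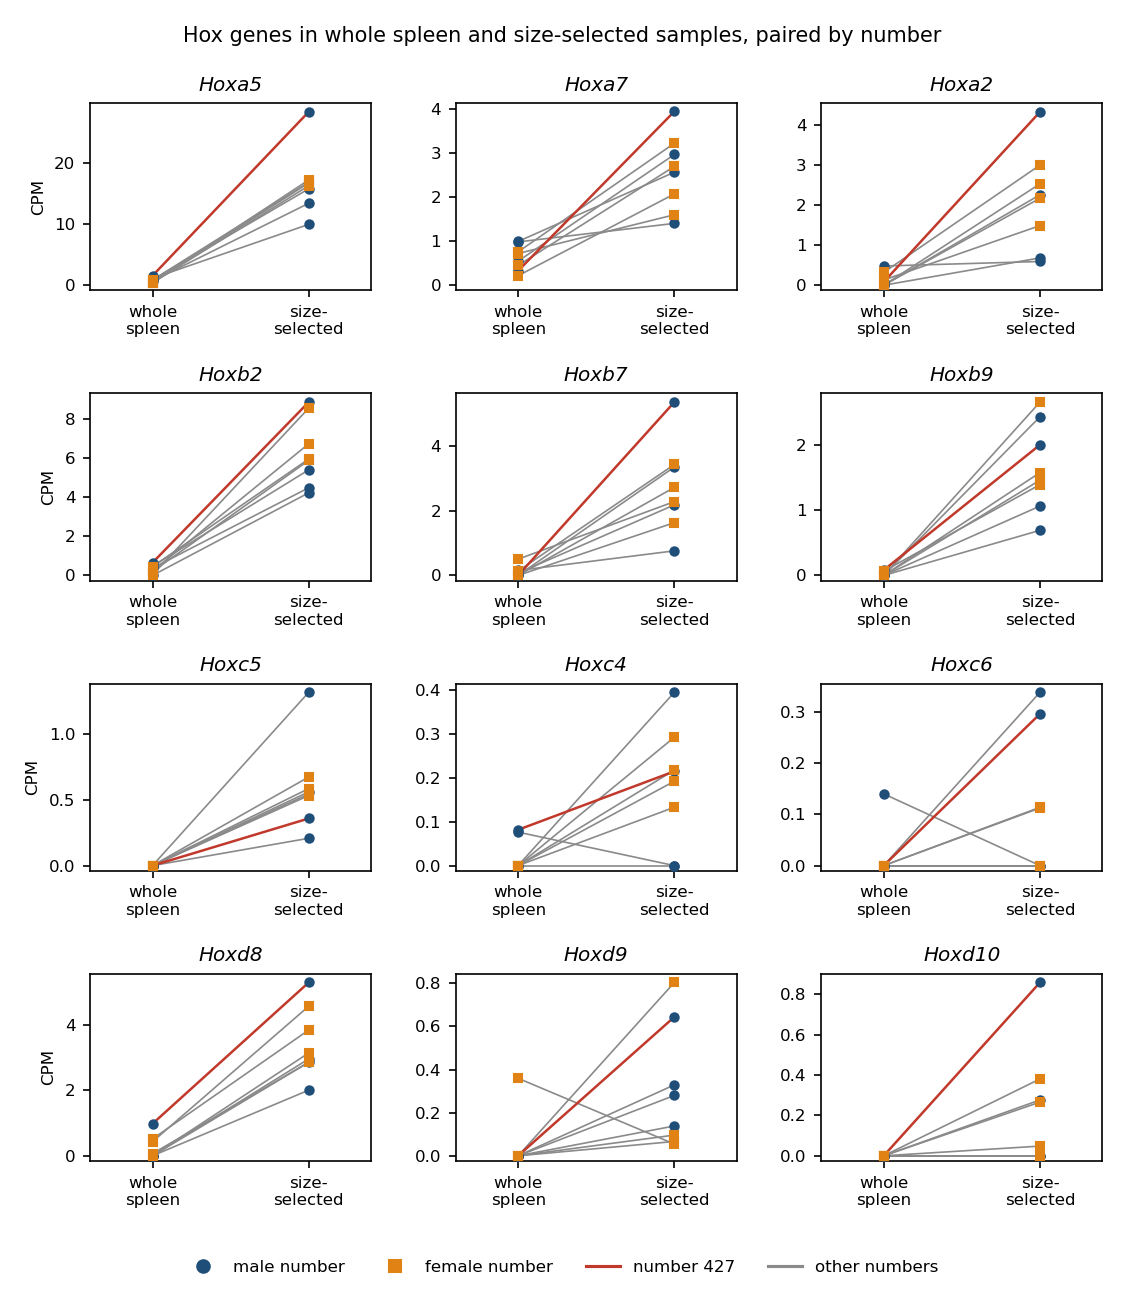
Level in CPM (vertical axis, linear, a scale for each panel) of the 3 Hox genes of each cluster with the highest mean CPM in the size-selected samples, 1 row of panels per cluster; each line joins the whole spleen and the size-selected sample of 1 number, circles are male and squares female numbers, and number 427 is red. Lines rise for all 8 numbers in Hoxa5, Hoxa7, Hoxa2, Hoxb2, Hoxb7, Hoxb9, Hoxc5 and Hoxd8, and some lines fall or stay at 0 in Hoxc4, Hoxc6, Hoxd9 and Hoxd10.

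Among the size-selected samples, the same numbers recurred at the ends of the range. Number 427 was the highest for 12 of the 17 called genes, number 408 the lowest for 7 and number 435 for 6. The cell type markers followed the same samples in part. Number 408 had the lowest summed fibroblast, smooth muscle, mesothelial, endothelial, macrophage and stem and progenitor markers and the highest summed B cell markers. Number 427 had the highest smooth muscle, endothelial, macrophage and stem and progenitor markers and the lowest B cell markers. The fibroblast and glial markers were highest in number 436 and the mesothelial markers in number 445, and the glial markers were lowest in number 407. Number 435, which had the lowest Hox sum (26.5 CPM), had the highest T cell, neutrophil and erythroid markers. In whole spleen, number 427 also had the highest Hox sum (5.55 CPM, with 14 rows above 0 against 7 to 12 in the others). It had the highest sums of fibroblast, smooth muscle, mesothelial, endothelial, glial, macrophage and stem and progenitor markers there. The part of these cell types in the Hox levels was not tested.

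Hox proteins bind DNA together with TALE homeodomain proteins. All 8 TALE genes reported here passed the filter, 4 were higher, 2 lower and 2 not called (37.5% and 30.4% of all genes were higher and lower), with a median log2 fold change of 0.74 against 0.05 over all genes. Pknox2 was at 3.42 to 7.96 CPM in the size-selected samples and at 0 in all whole spleen samples, at least 25.8-fold higher than the floor (edgeR adjusted p = 1.25e-08). Pknox2 passed the filter through the size-selected samples alone, so the count of TALE genes called is given as a description. Meis2 was at 4.64 to 13.0 against 0 to 0.578 CPM (log2 fold change 4.91, SE 0.40). The groups of both lay apart. Meis1, a partner of Hoxa9 in blood stem cells, had a log2 fold change of 3.93 and Pbx3 of 1.36. Pbx4 (-1.28) and Pknox1 (-0.48, adjusted p = 0.00711) were lower, but the deposited size-selected values of Pknox1 carry a constant below 1, and with it divided out its value was -0.23 and not called (adjusted p = 0.168).

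Of 13 other homeobox genes close to the Hox family, 1 passed the filter: Meox1, a mesoderm gene, was at 0.936 to 5.65 against 0 to 1.14 CPM, a difference of 3.14 on the log2 scale (SE 0.62, adjusted p by edgeR = 2.10e-04). With the constants of its deposited values divided out, this was 3.84, and with limma-voom 3.90. Without the filter 8 were tested, of which 3 were higher and 1 lower (25.3% and 18.2% of all genes). The others, named after their values were seen, were Gbx2 (3 to 56.2 counts in the size-selected samples, 0 in all whole spleen samples, at least 8.46-fold higher), Meox2 (4 to 64 counts against 0, at least 6.81-fold higher) and, lower, Evx1, which adjoins the Hoxa cluster (1.60 to 12.3 against 3 to 28 counts). Evx2, next to the Hoxd cluster, and Cdx1, Cdx4, Gsx2 and Mnx1 were at 0 in all 16 samples.

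Polycomb proteins hold Hox genes silent, and Trithorax proteins and their partners keep them active. Of 19 Polycomb genes, 18 passed the filter, 3 were higher, 7 lower and 8 not called (37.5% and 30.4% of all genes were higher and lower), with a median log2 fold change of -0.23. The largest rises were in the chromodomain protein Cbx6 (1.87, SE 0.17) and in Bmi1 (0.95, SE 0.12), which represses the Cdkn2a locus. Ezh1 was not called (0.05, adjusted p by edgeR = 0.743). With the constant of its deposited values divided out, Ezh1 stood at 0.29 and was called higher (adjusted p by edgeR = 0.0292). The largest falls were in the methyltransferase Ezh2 (-0.85, SE 0.14), in Cbx8 (-0.83, SE 0.21) and in Suz12 (-0.83, SE 0.15), a partner of Ezh2; with the constant of its deposited values divided out, Suz12 stood at -0.58. Of 13 Trithorax and activator genes, all tested, 0 were higher at an adjusted or an unadjusted p under 0.05 by edgeR, as with DESeq2 and limma-voom, and 7 were lower (37.5% and 30.4% of all genes), with a median of -0.42. Kdm6b, a demethylase of the Polycomb mark, stood at -1.86 (SE 0.22) and the methyltransferase Kmt2b at -1.83 (SE 0.28) on the log2 scale; with the constants of the deposited values divided out, these were -1.62 and -1.58. Kmt2a, whose fusions drive HOXA genes in leukaemia, had -1.25 and the demethylase Kdm6a 0.47 (adjusted p = 0.0802, and 0.00822 with the number as a block).

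**Figure D4:**
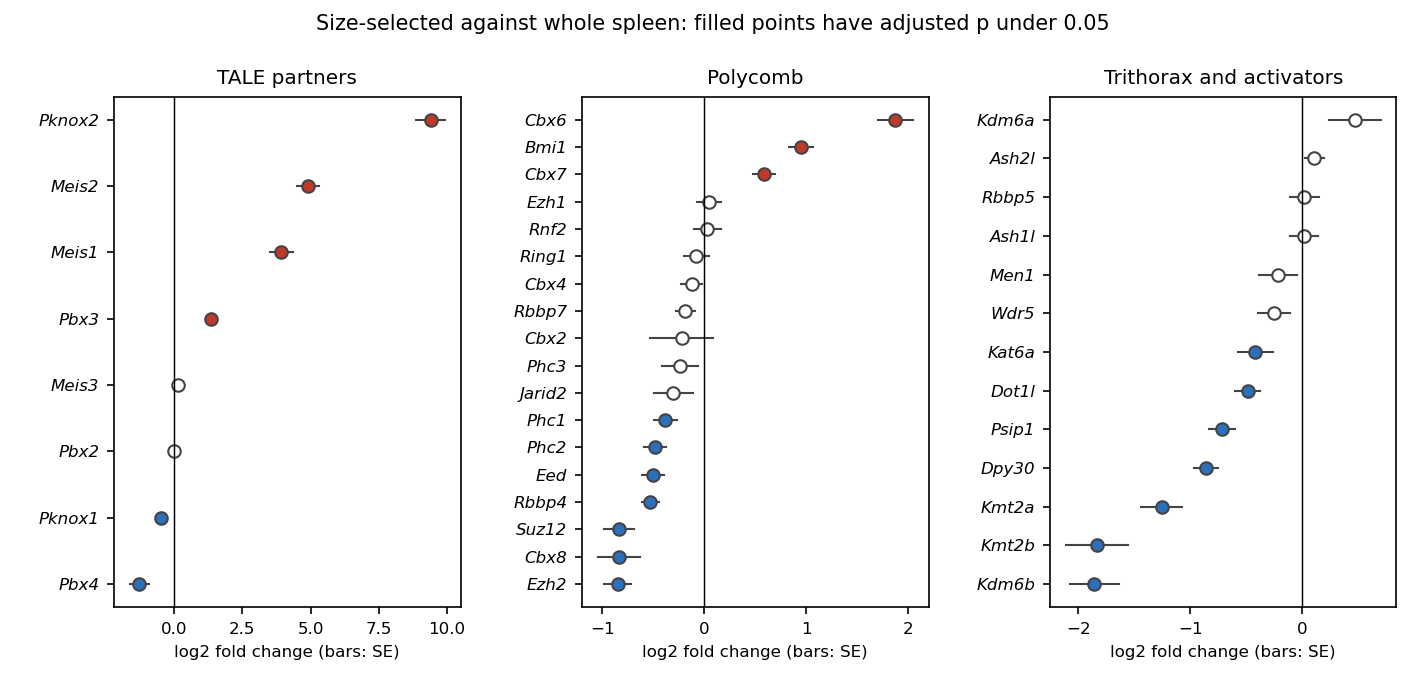
Log2 fold change of size-selected against whole spleen (horizontal axis, a scale for each panel; bars are 1 SE) for the genes reported here that passed the filter among TALE partners, Polycomb and Trithorax genes; filled points have an adjusted p under 0.05, red higher and blue lower. Pknox2, Meis2 and Meis1 stand at 3.93 or more, while the values of the Polycomb and Trithorax genes stay between -1.86 and 1.87. The point of Pknox2, at 0 in all whole spleen samples, depends on the prior count of the fit.

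Of 18 noncoding genes of the Hox clusters, 17 were in the table and 0 passed the filter. Without it, 6 of 8 tested were higher (25.3% of all genes): Hoxd3os1, Hoxb5os, Hoxb3os, Hoxaas2, Hotairm1 and Hoxaas3. Hotairm1, in the Hoxa cluster, had 11 to 27 counts in the size-selected and 0 to 4 in the whole spleen samples, with no overlap, and Hoxd3os1 had 3 to 22 against 0 to 2. Hotair, Hottip and the listed microRNA genes were at 0 in all samples.

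The 2 nearest protein-coding genes on each side of each cluster were called in both directions. Of these 16 genes, 12 passed the filter, with 4 higher, 6 lower and 2 not called (37.5% and 30.4% of all genes were higher and lower), and a median log2 fold change of -0.11. Beside Hoxa, Snx10 (1.39) and Skap2 (0.95) were higher and Hibadh (0.10) was not called. Beside Hoxb, Skap1 had -1.36 and Snx11 0.27. Skap1 is a signalling adaptor and Snx11 a sorting nexin. Beside Hoxc, Calcoco1 had 0.62, Smug1 0.46 (adjusted p = 0.0503), Atp5g2 -1.12 and Cbx5 -0.39. Beside Hoxd, Hnrnpa3 had -1.08, Lnpk -0.42 and Mtx2 -0.32. With the constants divided out, Cbx5 (-0.02), Lnpk (-0.17) and Snx11 (0.22, adjusted p = 0.0582) were no longer called, and Snx11 was not called without the filter either (adjusted p = 0.124).

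No Hox gene was called between the sexes. In the 8 size-selected samples, 12 Hox genes could be tested and 0 were called, also with DESeq2 and limma-voom, and 0 had an unadjusted p under 0.05 (edgeR; 0.0397% of all 15127 genes were called). Female minus male log2 fold changes of the genes reported here ran from -0.21 (Hoxb7) to 0.39 (Hoxb6), with an SE of 0.49 and 0.56. In the test of whether the difference between the 2 kinds of sample depended on sex, 0 of 12 Hox genes were called by edgeR, DESeq2 or limma-voom (edgeR called 0% of 15760 genes), and Hoxa3 had an unadjusted p of 0.0106. Hoxa3 was at 0.817 ± 0.290 CPM in female and 0.834 ± 0.653 in male size-selected samples (SD, n = 4), and at 0 in all 4 female and 0.221 ± 0.205 CPM in the male whole spleen samples. Hoxa5 was at 16.8 ± 0.391 CPM in female and 16.9 ± 8.04 in male size-selected samples (SD, n = 4), so its spread between samples was that of the male numbers. In whole spleen Hoxa5 was at 0.513 ± 0.233 CPM in female and 1.05 ± 0.377 in male samples (SD, n = 4). Its unadjusted p in the test by sex was 0.0545 (edgeR), and with the number as a block it was under 0.05, where again 0 of 12 Hox genes were called.

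Among the 2201 genes of the authors' deposited table, whose log2 fold changes are 3.5 or more, are 11 Hox genes, and these were all among the 17 called without the filter. In the authors' deposited table, Hoxb9 had the largest of these changes, 6.25, followed by Hoxb5 (5.71), Hoxc5 (4.94), Hoxa4 (4.73) and Hoxb2 (4.52). It gives Hoxa5 a log2 fold change of 4.46 and, as the authors' mean TPM, 12.2 against 0.443. The authors' deposited table also lists the antisense genes Hoxd3os1, Hoxb3os and Hoxb5os. That table was made from these same samples, so its overlap with the calls here is no separate evidence.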

How the data were processed

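RNA was measured in 16 spleen samples. The submitters' processing notes name Trim Galore, STAR, RSEM, DESeq and the build mm10, with no versions; the annotation and the strand setting are not given in the sources used here. The authors deposited estimated counts for each gene and sample, as the values and the notes show. For 3898 genes the deposited values of the size-selected columns are multiplied by constants of 0.659 to 0.964, found from the values alone. The authors' deposited comparison table holds, per its headers, a mean signal per gene, a log2 fold change, a test score, p-values, and TPM and FPKM means per group; of these the log2 fold changes and TPM means are printed.

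Counts were rounded, kept with filterByExpr (minimum count 10), TMM-scaled and tested over the whole table with edgeR 4.0.16 in R 4.3.3 (quasi-likelihood, Benjamini-Hochberg, adjusted p under 0.05), with the group as the only term. CPM uses TMM-scaled totals, and CPM per kb the union of GENCODE M21 exons; 39 of 40 Hox rows were found there. The Hox genes, the other lists and the rule for named genes (the 3 Hox genes of each cluster with the highest mean CPM) were chosen with earlier results of these data known. A few genes of these lists are not reported here one by one; counts of Hox genes include them. Samples with the same number deviated together in all 8 pairs (correlation 0.12 to 0.38; mean 0.21, against -0.03 for different numbers), so the number pairs them; this pairing is from the data, and the fit with it as a block is an alternative. Other alternatives were DESeq2 1.42.0, limma-voom (limma 3.58.1), RLE scaling, other filters, sex as a covariate, restored counts (constants divided out) and leaving out each number. The fits without a filter that also change another setting, and the pooled ratios and bounds with a number left out, were chosen after seeing the data. In a simulation of counts, 200 genes were shifted by 2 (log2). The fit of the 2 kinds of sample recovered 100% of them among 14852 genes, with 11 of 211 calls false, and the fit of sex by kind of sample 75% among 15442. Only genes above a minimum expected count were shifted, with the same spread set for every gene and no pairing. The recovery is therefore no measure of power for Hox genes with few counts.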

Additional observations from a re-analysis of the deposited data

Results flagged for a closer look

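Screening covered 22 sets of 8 values: the 6 Hox genes past the filter and the cluster and total sums, in each kind of sample. For 4 sets, all of them sums, the screen flagged an end sample. It stood apart from the other 7 by more than a 95% criterion allows, where chance gives about 5%. The summed level of all Hox genes in the size-selected samples was highest in number 427 at 71.3 CPM, with a gap to the next of 0.558 of the range. The Hoxa sum there was highest in number 427 too, at 42.0 CPM and a gap of 0.585. The Hoxc sum in the size-selected samples was highest in number 407 at 2.16 CPM, with a gap of 0.547. The Hoxc sum in whole spleen was highest in number 435 at 0.280 CPM, with a gap of 0.709. It rests on 2 counts of Hoxc6 and 2 of Hoxc9. These gaps are in CPM, and on that scale Hoxa5 in the size-selected samples also passed the criterion, though not flagged. Number 427 was at 28.4, the next at 17.3 and the lowest at 9.97 CPM. So did Hoxb7 in whole spleen, with number 436 at 0.503, the next at 0.153 and the lowest at 0 CPM.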

How the results depend on the processing

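The number of Hox genes called higher, 6 with the filter, was 17 without a filter and 3 with a minimum count of 30, where fewer genes are tested, and 6 to 8 with each number left out; 0 were lower in each of these. Without a filter it was 15 to 17 with each number left out. With the replicate block, which pairs samples by number, 6 Hox genes were called with the filter and 16 without. TALE genes called lower went from 2 to 1 with the stricter filter and to 1 with restored counts, which moved Pknox1. Other homeobox genes called higher went from 1 to 3 without a filter and to 0 with the stricter one, and those called lower from 0 to 1 without a filter and to 1 with restored counts. Trithorax and activator genes called higher went from 0 to 1 with the replicate block and to 1 with sex as a covariate, and were 0 to 1 with each number left out (1 without 445). Noncoding genes called higher went from 0 to 6 without a filter and were 0 to 1 with each number left out (1 without 408 or 460). The cause of these changes was not tested beyond the number of genes that pass each filter. The level of Hoxa7 per kb moved from 0.888 to 1.26 CPM when its longest transcript was used. Other levels per kb depend on this choice too. The exon union and the longest transcript hold 6014 and 2591 bases in Hoxa3, and 5580 and 3226 in Hoxa9. Leave-one-out aside, the other 120 counts and 197 values were classed as unchanged, by side of the threshold or range, which allows small shifts in a count. Polycomb genes called higher were 3 with the filter and 4 without it. Ezh1 was called higher with restored counts (adjusted p by edgeR = 0.0292). Hoxc4 under the block and Pknox1 with restored counts lost their call. Of the neighbours of the clusters, which were recomputed apart from these, Cbx5, Lnpk and Snx11 lost theirs with restored counts, Snx11 also without a filter, and Smug1 was called under the block (adjusted p = 0.0387). No result reversed. RLE scaling moved the median log2 fold change of all genes from 0.05 to 0.03. At 12153770 to 19944440 counts per sample, 1 count is under 0.1 CPM, and most whole spleen Hox values are 0.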
